A study of Mus musculus with 12 samples.

Results

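The 41 genes described here carry the integrated stress response and the unfolded protein response of the mouse osteocyte line Ocy454. They were taken by Ensembl mouse gene ID from the 37583 gene IDs of the count table, and each matched 1 ID. ATF4 and the genes of its amino acid programme make up 26 of them, and the sensors and folding genes of the endoplasmic reticulum (ER) make up 15. RNA was sequenced from 12 libraries in 4 groups of 3 replicates. The groups were control Ocy454 cells in static culture, control cells under 3 h of fluid-flow shear stress (FFSS), and cells with deletion of HDAC4 and HDAC5 (DKO, class IIa histone deacetylases) in the same static and FFSS conditions. Culture lasted 14 days at 37 °C before FFSS. Ocy454 carries a temperature-sensitive T antigen and the study used a single-cell sub-clone of it, so that all groups share the T antigen and 1 clonal origin. The study's methods describe gene deletion in Ocy454 cells with lentiviral Cas9 and guide RNAs in general terms. All control libraries came from the control line and all DKO libraries from the deleted line, so that the deletion and the line it was made in cannot be told apart. The labels do not say whether replicates were separate cultures, and p-values then measure only the spread between these libraries, which may be technical.

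In the integrated stress response, kinases that sense amino acid shortage, ER stress, viral RNA or haem shortage phosphorylate the initiation factor eIF2, which lowers general translation but raises translation of the ATF4 mRNA. ATF4 then switches on genes for amino acid synthesis, amino acid uptake and the loading of tRNAs, and, with CHOP (Ddit3), genes of stress feedback and cell death. The unfolded protein response has 3 ER sensors. IRE1 (Ern1) splices the Xbp1 mRNA, ATF6 is cut to a transcription factor, and PERK (Eif2ak3) is one of the eIF2 kinases. XBP1 and ATF6 raise chaperones, disulphide isomerases and the machinery that degrades misfolded proteins. Cells of the osteoblast lineage secrete much collagen, which loads this system. RNA counts per gene show mRNA levels only and do not show eIF2 phosphorylation, ATF4 translation, XBP1 splicing or ATF6 cleavage.

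The DNA elements that separate these branches were read in the promoter windows of RefSeq (assembly GRCm38.p6, 250 bases before to 50 after the gene start), where 33 of the 41 genes had a match by symbol. Cth, Slc7a5, Slc7a3, Wars, Nars, Atf6, Manf and Hyou1 had no entry. The C/EBP-ATF response element (CARE, searched as TGATGNAA on both strands) was in 3.97% of all 32851 windows and in those of 8 of 21 genes of the ATF4 axis, namely Trib3, Chac1, Nupr1, Vldlr, Asns, Pycr1, Slc7a11 and Gars. It was in the window of 1 of 10 folding genes, Herpud1. The ER stress response element (ERSE, CCAAT and CCACG with 9 bases between them, both strands) was in 0.119% of all windows, in none of the 21 genes of the ATF4 axis and in 4 of 10 folding genes, Creld2, Pdia6, Calr and Canx. ERSE-II (ATTGG and CCACG with 1 base between them, both strands) was in 0.0365% of all windows and, of these genes, in Herpud1. The XBP1 element UPRE (TGACGTGG, both strands) was in 0.676% of all windows and in none of the 33 genes. The elements do not share letters with each other in these windows. Stretches before the start of 7 genes are printed to show both kinds of element, with the matched letters in capitals, 5′ to 3′ on the strand of the gene.
Asns (chr6:7693210-7693257, - strand): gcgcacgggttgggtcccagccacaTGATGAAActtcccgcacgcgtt
Chac1 (chr2:119351024-119351081, + strand): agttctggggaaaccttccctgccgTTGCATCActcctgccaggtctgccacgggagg
Nupr1 (chr7:126625548-126625605, - strand): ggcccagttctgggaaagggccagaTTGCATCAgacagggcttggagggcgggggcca
Slc7a11 (chr3:50443628-50443704, - strand): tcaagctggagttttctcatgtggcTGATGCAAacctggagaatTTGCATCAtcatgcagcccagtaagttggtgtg
Herpud1 (chr8:94386292-94386412, + strand): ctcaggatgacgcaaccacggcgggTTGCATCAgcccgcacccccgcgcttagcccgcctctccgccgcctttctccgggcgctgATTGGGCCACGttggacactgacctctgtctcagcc
Pdia6 (chr12:17266466-17266534, + strand): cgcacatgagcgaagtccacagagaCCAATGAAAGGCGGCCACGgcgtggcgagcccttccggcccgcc
Calr (chr8:84847050-84847118, - strand): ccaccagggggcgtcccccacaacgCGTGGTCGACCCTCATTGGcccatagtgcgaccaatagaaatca
Slc7a11 carried 2 CARE matches, 1 on each strand. Herpud1 carried a CARE and an ERSE-II match and was the only gene with elements of both branches. A match says only that the letters are there.

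**Figure D1:**
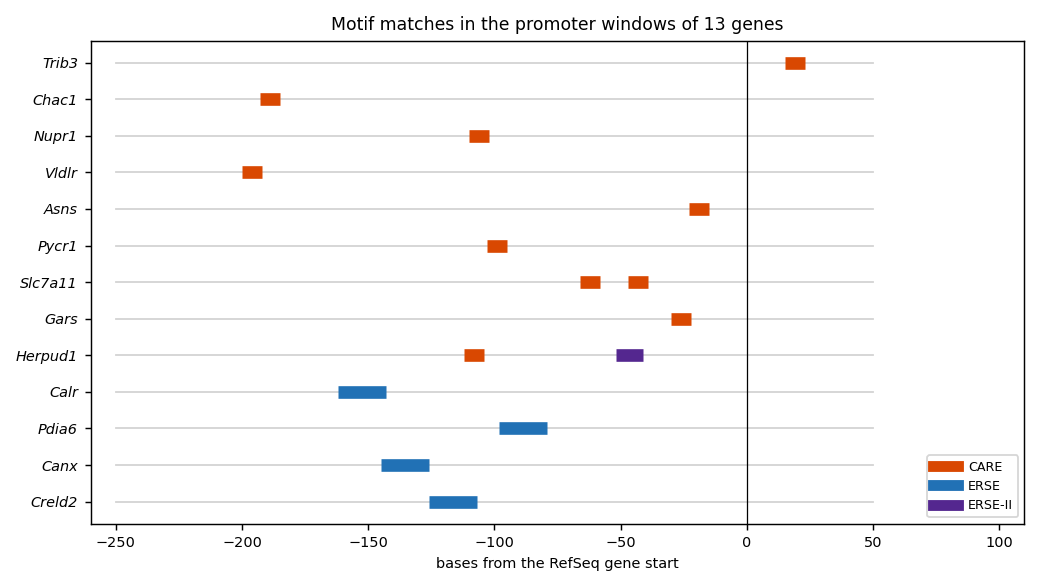
Matches of 3 motifs in the promoter windows of 13 genes, by distance in bases from the RefSeq gene start (250 before to 50 after). CARE matches lie in 8 genes of the ATF4 axis and in Herpud1, ERSE matches in 4 folding genes, and the Trib3 match lies after the start.

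The libraries held between 17585225 and 19174118 counted reads, so that 3 counts corresponded to 0.156 to 0.171 CPM, the count scaled to a library size of 1e6. Replicate 1 of the control FFSS group stood apart: its counts differed from replicates 2 and 3 with a chi-square per degree of freedom of 63.8 and 58.0, against 2.02 to 6.45 for all other replicate pairs. The share of reads outside annotated genes, among those outside and those counted in genes, was 5.25% to 5.36% in control static, 6.05%, 9.45% and 10.3% in control FFSS, 7.27% to 7.34% in DKO static and 8.16% to 8.80% in DKO FFSS libraries. Hdac5 and both IDs of Hdac4 were lower in DKO static cells, by 0.65, 0.85 and 0.39 on the log2 scale. Their RNA was not lost, and RNA counts do not show whether the proteins were present. Under FFSS both IDs of Hdac4 were lower, at -1.48 and -0.50, and Hdac5 did not pass, at 0.19 (adjusted p = 0.0512). Of the osteocyte markers, 5 of 7 were higher in DKO static cells, Pdpn was lower and Fgf23 was at or near 0 in every library. Their summed level was 210 to 265 CPM in control static and 3844 to 3929 CPM in DKO static cells, and Sost stood at 1.48, 2.13 and 12.4 CPM in control static cells, so the control line showed little of this defining osteocyte marker. Summed osteoblast markers ran from 19424 to 23445 CPM in control static and from 58006 to 65412 CPM in DKO static cells (2 of 5 higher). Summed chondrocyte markers ran from 79.3 to 104 CPM and from 2373 to 2963 CPM (4 of 6 higher). Of all genes tested, 27% were higher in DKO static cells, the share to read these marker counts against. Osteoblast markers were at 19664 CPM in control FFSS replicate 1 and at 6350 and 6776 CPM in replicates 2 and 3. Summed myeloid markers ran from 23.9 to 28.5 CPM in control static and from 2.80 to 3.29 CPM in DKO static cells, and from 15.6 to 23.5 and 3.04 to 3.45 CPM under FFSS. Nearly all of this was Cd68, lower in DKO static cells at -3.46 on the log2 scale, while Csf1r was higher at 1.17 and Ptprc and Emr1 had at most 3 counts in any library. Summed adipocyte markers ran from 2.03 to 2.53 CPM in control static and from 0.384 to 1.28 CPM in DKO static cells, nearly all of it Fabp4, lower at -1.74, with at most 3 counts of the other markers in any library. Summed endothelial markers were at or under 1.02 CPM. The part of these differences in the results that follow was not tested. In such bulk samples, fewer cells of a type and less RNA per cell cannot be told apart.

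Of the 41 genes, 40 entered the test. Cth, which makes cysteine from cystathionine, had 1 count in control FFSS replicate 2 and 0 counts in the other 11 libraries, so that its level lay under the limit of 3 counts throughout. Per length, as CPM divided by the kilobases of annotated exon (FPKM), Calr was highest in control static cells at 748 ± 31.5, followed by Atf4 at 511 ± 24.3, Slc7a5 at 251 ± 17.1, Canx at 224 ± 5.78 and Slc3a2 at 199.8 ± 18.1 FPKM (SD, n = 3). The lowest were Ern1 at 5.54 ± 0.121, Slc7a11 at 1.18 ± 0.32 and Slc7a3 at 0.611 ± 0.0494 FPKM. The coefficient of variation between replicates had a median of 5.83% over the 40 genes in control static cells and 9.93% in control FFSS cells. Exons of Ddit3, Shmt2, Cebpb and Manf overlap those of a neighbour on the other strand, whose counts came to 89.3%, 89.8%, 39.3% and 44.4% of their own, and the counting did not use strand. The values of these 4 genes are therefore uncertain.

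The first comparison asked how deletion of HDAC4 and HDAC5 bears on these genes at rest. In static culture, 31 of the 40 genes were lower and 5 were higher in DKO cells at an adjusted p under 0.05 (edgeR quasi-likelihood test, Benjamini-Hochberg over all 14904 genes tested), where 27.2% of all genes tested were lower and 27% were higher. Over the 40 genes the log2 fold changes had a median of -0.53, against 0.01 for all genes tested. The branches differed in counts and size: 23 of the 25 genes of the ATF4 axis that were tested were lower (median -0.90), against 8 of 12 folding genes (median -0.25). Lower by more than 2-fold were 9 genes, all of the ATF4 axis, and higher by more than 2-fold were 0, where 7.3% and 7.98% of all genes tested were.

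Among the regulators, 8 of 9 were lower in DKO static cells, with a median of -1.41. Trib3, the pseudokinase that restrains ATF4 and AKT, was at 227, 168 and 194 CPM in control static libraries and at 50.6, 44.3 and 51.4 CPM in DKO static libraries. Every static DKO library lay below every static control library, with a log2 fold change of -2.01 ± 0.10 (SE, adjusted p = 1.29e-09). Ppp1r15a, GADD34, which recruits the phosphatase that reverses eIF2 phosphorylation, was at 153, 132 and 139.7 CPM in control static libraries and at 41.8, 37.7 and 46.4 CPM in DKO static libraries. The groups did not overlap, and the log2 fold change was -1.75 ± 0.10 (SE, adjusted p = 5.54e-09). Chac1, which degrades glutathione, was at 94.6, 73.4 and 80.9 CPM in control static libraries and at 24.2, 24.7 and 29.8 CPM in DKO static libraries. The DKO libraries were all lower, with a log2 fold change of -1.66 ± 0.11 (SE, adjusted p = 3.36e-08).

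Ddit3, the transcription factor CHOP, was at 226, 189 and 203 CPM in control static libraries and at 74.8, 67.2 and 72.3 CPM in DKO static libraries. The log2 fold change was -1.53 ± 0.09 (SE, adjusted p = 7.81e-09), without overlap between the groups. Sesn2, an inhibitor of mTORC1 that binds leucine, was at 119, 102 and 101 CPM in control static libraries and at 39.1, 40.3 and 41.9 CPM in DKO static libraries. The log2 fold change was -1.41 ± 0.07 (SE, adjusted p = 1.35e-09). Atf4 itself differed less: it stood at 924, 841 and 875 CPM in control static and at 676, 653 and 698 CPM in DKO static libraries, and its log2 fold change was -0.38 ± 0.07 (SE, adjusted p = 0.000363). Cebpb, a partner of ATF4 at CARE sites, and Nupr1, a stress-induced chromatin protein, were lower by similar amounts, with log2 fold changes of -0.46 ± 0.07 (SE, adjusted p = 0.000115) and -0.54 ± 0.13 (SE, adjusted p = 0.00454). Vldlr, a lipoprotein receptor, did not pass, with a log2 fold change of -0.16 ± 0.20 (SE, adjusted p = 0.546).

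Amino acid uptake showed the largest difference of the 40 genes. Slc7a5, LAT1, the importer of leucine and other large neutral amino acids, was at 952, 851 and 846 CPM in control static libraries and at 192, 181 and 190.1 CPM in DKO static libraries. The DKO libraries lay far below the control libraries, with a log2 fold change of -2.23 ± 0.06 (SE, adjusted p = 6.97e-12). Slc3a2, the heavy chain 4F2hc that pairs with LAT1 and xCT, was at 648, 542 and 584.1 CPM in control static libraries and at 204, 195 and 211 CPM in DKO static libraries. It was lower without overlap, with a log2 fold change of -1.54 ± 0.07 (SE, adjusted p = 4.87e-10). The cationic amino acid transporter Slc7a3 was near the lower end of detection, at 2.22, 2.19 and 2.53 CPM in control static and 0.88, 0.768 and 1.28 CPM in DKO static libraries, with a log2 fold change of -1.24 ± 0.36 (SE, adjusted p = 0.00928). Slc7a11, the cystine importer xCT, was at 17.4, 10.99 and 11.3 and 8.52, 10.04 and 9.05 CPM, with a log2 fold change of -0.52 ± 0.20 (SE, adjusted p = 0.0389).

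In amino acid synthesis, 7 of 8 tested enzymes were lower and 1 was higher, with a median of -0.84. Mthfd2, the mitochondrial folate enzyme of one-carbon metabolism, was at 365, 303 and 331 CPM in control static libraries and at 126, 128 and 131 CPM in DKO static libraries. The groups did not overlap, with a log2 fold change of -1.37 ± 0.07 (SE, adjusted p = 2.48e-09). Asns, asparagine synthetase, was at 305, 262 and 279 CPM in control static libraries and at 153, 144 and 139.5 CPM in DKO static libraries. The log2 fold change was -0.96 ± 0.06 (SE, adjusted p = 1.51e-08). Phgdh, the first enzyme of serine synthesis, was at 94.6, 86.5 and 94.1 CPM in control static and 46.0, 45.3 and 46.8 CPM in DKO static libraries. The serine pathway was lower at each of its 3 steps, with log2 fold changes of -0.995 ± 0.08 (SE, adjusted p = 2.15e-07) for Phgdh, -0.74 ± 0.07 (SE, adjusted p = 5.35e-07) for Psat1 and -0.91 ± 0.08 (SE, adjusted p = 4.79e-07) for Psph. Shmt2, which turns serine into glycine in mitochondria, had a log2 fold change of -0.58 ± 0.06 (SE, adjusted p = 3.1e-06). The proline pathway split: Aldh18a1, its first enzyme, had a log2 fold change of -0.76 ± 0.06 (SE, adjusted p = 2.68e-07), while Pycr1, its last, was higher. Pycr1, pyrroline-5-carboxylate reductase, was at 45.5, 38.3 and 43.5 CPM in control static libraries and at 86.5, 68.9 and 85.7 CPM in DKO static libraries. The DKO libraries were all above the control libraries, with a log2 fold change of 0.92 ± 0.13 (SE, adjusted p = 6.55e-05).

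The 4 tRNA synthetases were all lower in DKO static cells, with a median of -0.43. Sars, which charges the tRNA for serine, was the furthest from 0, at 526, 486 and 496 CPM in control and 275, 267 and 263 CPM in DKO libraries, a log2 fold change of -0.90 ± 0.06 (SE, adjusted p = 1.26e-08). Wars, Nars and Gars had log2 fold changes of -0.48, -0.38 and -0.28. Of the 21 genes of the ATF4 axis with a promoter window, the 8 with a CARE match had log2 fold changes from -2.01 to 0.92 with a median of -0.53, and the 13 without one had a median of -0.91. Lower values were thus not limited to genes with a match in the window.

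Of the ER sensors, 2 of 3 were higher in DKO static cells. Ern1, IRE1, was at 46.2, 45.3 and 44.2 CPM in control static libraries and at 71.5, 73.7 and 70.5 CPM in DKO static libraries. The log2 fold change was 0.67 ± 0.17 (SE, adjusted p = 0.00536), and the groups did not overlap. Eif2ak3, PERK, was at 46.7, 41.5 and 43.0 CPM in control static libraries and at 69.3, 77.9 and 74.3 CPM in DKO static libraries. The log2 fold change was 0.76 ± 0.12 (SE, adjusted p = 0.000187), again without overlap. Atf6 did not pass, at 154, 149 and 143 CPM in control static and 145, 140.1 and 144 CPM in DKO static libraries, with a log2 fold change of -0.05 ± 0.07 (SE, adjusted p = 0.535).

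The 12 genes of ER folding and degradation were mixed. Xbp1, the transcription factor spliced by IRE1, was at 166, 144 and 154 CPM in control static libraries and at 219.7, 215 and 238 CPM in DKO static libraries. It was higher in every DKO library, with a log2 fold change of 0.53 ± 0.09 (SE, adjusted p = 0.000163). Sel1l, the scaffold of the ubiquitin ligase that clears misfolded ER proteins, was also higher, with a log2 fold change of 0.26 ± 0.05 (SE, adjusted p = 0.000525). Sdf2l1, a partner of ER DnaJ proteins, was at 44.3, 36.0 and 39.6 CPM in control static libraries and at 23.5, 17.0 and 21.7 CPM in DKO static libraries. It was the furthest below 0 of the folding genes, with a log2 fold change of -0.95 ± 0.13 (SE, adjusted p = 3.9e-05). Hyou1, a nucleotide exchange factor for BiP, and Herpud1, a membrane protein of ER-associated degradation, had log2 fold changes of -0.59 ± 0.09 (SE, adjusted p = 7.85e-05) and -0.57 ± 0.07 (SE, adjusted p = 1.24e-05). The lectin chaperone Calr was at 2253, 2074 and 2140.2 CPM in control and 1642, 1514 and 1593 CPM in DKO libraries, a log2 fold change of -0.45 ± 0.10 (SE, adjusted p = 0.00195). The isomerases Pdia4 and Pdia6, the mannosidase-like Edem1 and the lectin Canx were lower by less, with log2 fold changes from -0.29 to -0.22. Creld2 and Manf, both secreted ER stress proteins, did not pass, and their 95% intervals ran from -0.16 to 0.11 and from -0.11 to 0.13.

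**Figure D2:**
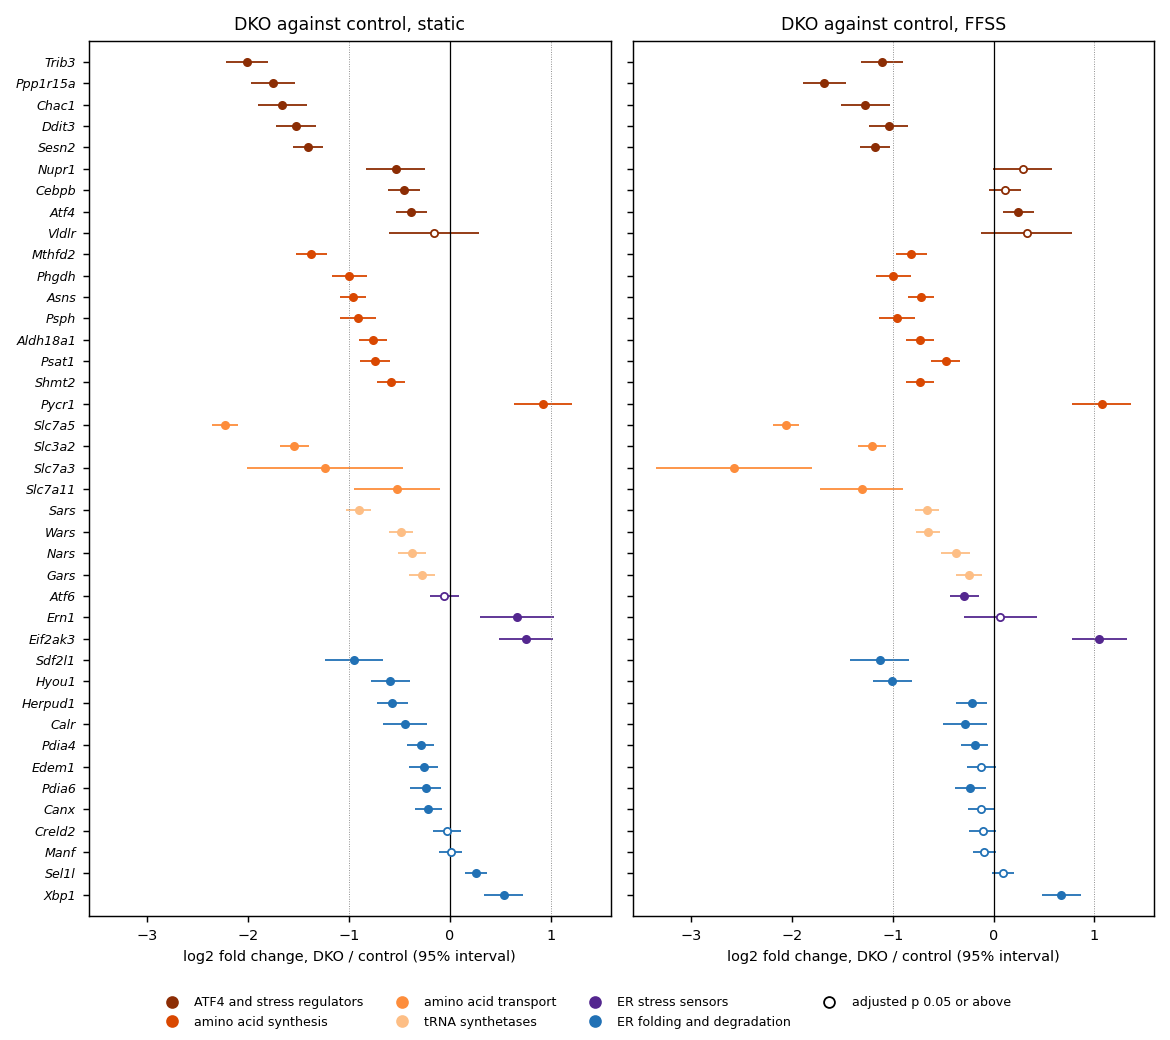
Log2 fold change of DKO over control cells for the 40 tested genes in static culture and under FFSS, with 95% intervals, coloured by list; open circles did not pass and dotted lines mark a 2-fold change. Genes of the ATF4 axis lie mostly left of 0, with Slc7a5 at -2.23 and Trib3 at -2.01 in static culture, while Ern1, Eif2ak3, Xbp1 and Pycr1 lie to the right.

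Further genes of the same pathways, none of them among the 41, were counted too, and more of the ER folding genes among them were higher than lower, unlike the 12 above. Of 21 other genes of the ATF4 axis, 15 were lower and 1 was higher in DKO static cells (71.4% and 4.76%, against 27.2% and 27% of all genes tested), with a median of -0.81. The furthest from 0 were Ddit4, which restrains mTORC1, at -2.76, the serine and alanine carrier Slc1a4 at -1.60 and the translation repressor Eif4ebp1 at -1.26. Of 20 other genes of ER folding, 10 were higher and 5 lower (50% and 25%, against 27% and 27.2% of all genes tested), with a median of 0.38. Ero1l, the ER oxidase, was lower at -1.59, and the chaperone Hspa5 (BiP) was lower at -0.70. P4hb, protein disulphide isomerase and a subunit of collagen prolyl hydroxylase, was higher at 0.68. Of the 4 genes of the other eIF2 kinases and the constitutive eIF2 phosphatase subunit, Eif2ak1 was higher at 0.78, Ppp1r15b was lower at -0.26, and Eif2ak2 and Eif2ak4 did not pass.

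Under FFSS, 27 of the 40 genes were lower and 4 were higher in DKO cells, where 29.6% of all genes tested were lower and 27% were higher. Leaving out control FFSS replicate 1, the counts were 28 lower and 8 higher, while 65% of all genes tested passed in that fit. The median was -0.43 over the 40 genes and -0.05 over all genes tested. Of the ATF4 axis, 20 of 25 were lower and 2 higher (median -0.73), and of the folding genes 6 of 12 were lower and 1 higher (median -0.15). With scaling by library totals, 10 of 12 folding genes were lower and 20 of 25 of the ATF4 axis. There 42.2% of all genes tested were lower, so the branches no longer differed clearly in counts. Relative to the median of all genes tested, the medians of the axis and the folding genes were -0.68 and -0.10 under either scaling. In the main fit, more than 2-fold lower were 11 genes and more than 2-fold higher were 2, Pycr1 and Eif2ak3, where 8.96% and 8.25% of all genes tested were. The 4 transporters all lay past 2-fold. Slc7a5 was at 839, 862 and 847 CPM in control FFSS and 199, 209 and 204 CPM in DKO FFSS libraries, at -2.06 ± 0.06 (SE, adjusted p = 1.37e-11) on the log2 scale. Slc3a2 was at 520.0, 516 and 509 CPM in control FFSS and 218, 234 and 217 CPM in DKO FFSS libraries, at -1.21 ± 0.07 (SE, adjusted p = 3.61e-09). Slc7a3 was at 2.00, 4.49 and 5.74 CPM in control FFSS and 0.719, 0.654 and 0.671 CPM in DKO FFSS libraries, at -2.57 ± 0.36 (SE, adjusted p = 3.18e-05), with control replicate 1 the nearest to the DKO libraries. Slc7a11 was at 18.2, 29.0 and 22.1 CPM in control FFSS and 9.40, 8.62 and 9.90 CPM in DKO FFSS libraries, at -1.31 ± 0.19 (SE, adjusted p = 7.18e-05). Sdf2l1 and Hyou1 were the folding genes past 2-fold. Sdf2l1 was at 31.3, 37.2 and 39.1 CPM in control FFSS and 18.1, 17.4 and 13.8 CPM in DKO FFSS libraries, a log2 fold change of -1.13 ± 0.14 (SE, adjusted p = 9.16e-06), and that of Hyou1 was -1.003 ± 0.09 (SE, adjusted p = 5.23e-07).

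Some regulators stood differently under FFSS. Atf4 was higher in DKO FFSS cells, at 745, 776 and 743 CPM against 705, 625 and 578.4 CPM in control FFSS cells, a log2 fold change of 0.25 ± 0.07 (SE, adjusted p = 0.00814). With scaling by library totals, which moved the median of all genes tested to -0.25, the value of Atf4 was 0.05 and did not pass (adjusted p = 0.418). Cebpb, Nupr1 and Vldlr did not pass, with log2 fold changes of 0.11, 0.29 and 0.33, and without control FFSS replicate 1 they were higher, at 0.15, 0.49 and 0.68. Another 5 regulators were lower in DKO cells.

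Among these, Ppp1r15a was at 119.7, 155 and 149 CPM in control FFSS and 42.4, 45.3 and 44.7 CPM in DKO FFSS libraries, with a log2 fold change of -1.68 ± 0.10 (SE, adjusted p = 8.73e-09). Chac1 was at 54.8, 69.2 and 66.3 CPM in control FFSS and 25.5, 27.8 and 25.5 CPM in DKO FFSS libraries, with -1.27 ± 0.11 (SE, adjusted p = 4.48e-07). Sesn2 was at 100.04, 107 and 102 CPM in control FFSS and 45.8, 46.0 and 45.2 CPM in DKO FFSS libraries, with -1.17 ± 0.07 (SE, adjusted p = 6.69e-09). The DKO libraries of these genes all lay below the control ones. Trib3 was at 98.7, 99.2 and 100.3 CPM in control FFSS and 46.0, 49.3 and 43.2 CPM in DKO FFSS libraries, with -1.11 ± 0.10 (SE, adjusted p = 3.61e-07). Ddit3 was at 143, 182 and 176 CPM in control FFSS and 81.0, 84.5 and 78.0 CPM in DKO FFSS libraries, with -1.04 ± 0.09 (SE, adjusted p = 3.19e-07). Pycr1, the enzyme that was higher at rest, was at 44.8, 30.9 and 33.0 CPM in control FFSS and 81.8, 72.6 and 73.7 CPM in DKO FFSS libraries, higher with 1.07 ± 0.13 (SE, adjusted p = 1.9e-05) and without overlap.

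Ern1 did not pass under FFSS, at 0.07 ± 0.16 (SE, adjusted p = 0.76); without control FFSS replicate 1 it was lower, at -0.16 (adjusted p = 0.0146). Eif2ak3 was at 48.7, 31.8 and 33.8 CPM in control FFSS and 78.6, 79.4 and 78.3 CPM in DKO FFSS libraries, higher with 1.05 ± 0.12 (SE, adjusted p = 1.14e-05), and Xbp1 was higher, at 0.67 ± 0.09 (SE, adjusted p = 2.03e-05). The static and FFSS comparisons of the genotypes use different libraries.

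The next comparison asked what 3 h of FFSS did in control cells. At an adjusted p under 0.05, 16 of the 40 genes fell and 6 rose, where 18.1% of all genes tested fell and 17.7% rose, and none of the 40 changed by more than 2-fold, where 5.93% of all genes tested did. The median log2 fold change was -0.16 over the 40 genes and 0.01 over all genes tested. Without control FFSS replicate 1, 21 fell and 11 rose, while 55% of all genes tested passed in that fit. Without control static replicate 1, 9 fell, while 25.2% of all genes tested passed, against 35.8% with all 12 libraries. With scaling by library totals alone in place of TMM, the median of all genes tested moved to 0.13 and the counts to 7 fallen and 11 risen, where 11.3% and 27.4% of all genes tested fell and rose, and the median of the 40 genes was -0.16 relative to that of all genes under either scaling.

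Among the regulators of the ATF4 axis, 7 of 9 fell and 0 rose, where 18.1% and 17.7% of all genes tested did. With library totals 4 of 9 fell and 0 rose, where 11.3% and 27.4% of all genes tested did. The calls for Ddit3, Chac1 and Cebpb were lost there. Trib3 stood at 98.7, 99.2 and 100.3 CPM in the 3 control FFSS libraries, all below the static libraries given above, a log2 fold change of -0.98 ± 0.09 (SE, adjusted p = 1.09e-05). Nupr1 went from 145, 121 and 126 CPM in static to 95.9, 60.7 and 70.3 CPM in FFSS libraries, a log2 fold change of -0.79 ± 0.13 (SE, adjusted p = 0.0012). Vldlr was at 358, 321 and 334 and 274, 140.2 and 159.9 CPM, a log2 fold change of -0.82 ± 0.20 (SE, adjusted p = 0.0115). For Nupr1 and Vldlr the FFSS libraries lay below all static libraries, with replicate 1 nearest to them.

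Atf4 was at 705, 625 and 578.4 CPM under FFSS, each library below every static one, a log2 fold change of -0.47 ± 0.07 (SE, adjusted p = 0.000338). Chac1 fell by less, each FFSS library below every static one, with a log2 fold change of -0.39 ± 0.11 (SE, adjusted p = 0.0142), and Ddit3 and Cebpb had log2 fold changes of -0.30 and -0.25. Without control static replicate 1 Chac1 was at -0.28 and did not pass (adjusted p = 0.0805). Sesn2 and Ppp1r15a, both far lower in DKO cells, did not pass in this comparison, with log2 fold changes of -0.06 and -0.00. Of the enzymes, Mthfd2 fell from 365, 303 and 331 CPM to 237, 219.6 and 209.8 CPM, a log2 fold change of -0.58 ± 0.07 (SE, adjusted p = 6.52e-05). Psat1 went from 518, 448 and 488 CPM to 398, 383 and 351 CPM, each FFSS library below every static one. Psat1 and Asns fell with log2 fold changes of -0.36 ± 0.07 (SE, adjusted p = 0.00143) and -0.25 ± 0.06 (SE, adjusted p = 0.00632), and the other 5 tested enzymes did not pass. Without control FFSS replicate 1, all 8 passed, 4 in each direction, while 55% of all genes tested passed. Phgdh, Psph, Shmt2 and Aldh18a1 rose there, at 0.21, 0.22, 0.13 and 0.13, and Pycr1 fell, at -0.41. With library totals the Asns value was -0.12 and did not pass (adjusted p = 0.146).

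The transporters moved in both directions. Slc7a11 was at 17.4, 10.99 and 11.3 CPM in static and 18.2, 29.0 and 22.1 CPM in FFSS libraries, a rise with a log2 fold change of 0.80 ± 0.18 (SE, adjusted p = 0.00589). Slc7a3 was at 2.22, 2.19 and 2.53 and 2.00, 4.49 and 5.74 CPM, with a log2 fold change of 0.82 ± 0.29 (SE, adjusted p = 0.0425), and its FFSS replicate 1 lay below the static libraries while replicates 2 and 3 lay above them. This call was lost under 13 of 20 alternatives, among them the removal of any 1 library other than control FFSS replicate 1 and DKO static replicate 3. Slc3a2 fell with -0.20 ± 0.06 (SE, adjusted p = 0.0292), and Slc7a5 did not pass at -0.06. Of the tRNA synthetases, Wars rose at 0.27 and Sars fell at -0.20. Neither Slc3a2 nor Sars passed with library totals.

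Of the sensors, Ern1 was at 44.9, 80.6 and 77.8 CPM in control FFSS libraries, with replicate 1 within the static range and replicates 2 and 3 above it, and its log2 fold change was 0.58 ± 0.17 (SE, adjusted p = 0.0201). Without replicate 1 it was 0.81, and without any 1 of the control static libraries, or without replicate 2 or 3, it did not pass. Atf6 rose with 0.27 ± 0.07 (SE, adjusted p = 0.00752), and Eif2ak3 did not pass at -0.20 ± 0.13 (SE, adjusted p = 0.235); without replicate 1, Eif2ak3 fell with a log2 fold change of -0.41 (adjusted p = 9.82e-06). Of the folding genes, 4 of 12 fell and 1 rose (33.3% and 8.33%), where 18.1% and 17.7% of all genes tested did. Without replicate 1, 7 fell and 2 rose, while 55% of all genes tested passed. Xbp1 at -0.24 (adjusted p = 0.00106) and Calr at -0.34 were then among the fallen. Hyou1 was the 1 that rose, from 322, 299.9 and 298 CPM to 333, 434 and 459 CPM, a log2 fold change of 0.42 ± 0.09 (SE, adjusted p = 0.00371). Edem1, Herpud1, Pdia4 and Canx fell, with log2 fold changes from -0.35 to -0.18. Edem1 went from 195, 179 and 184 CPM to 162, 131 and 145 CPM, with -0.35 ± 0.07 (SE, adjusted p = 0.00185), and of the 4 it passed also with library totals, where 1 folding gene fell and 4 rose and 11.3% and 27.4% of all genes tested did.

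Several of these calls rest on how the libraries are modelled. With each library's share of reads outside genes as a covariate, the counts were 8 fallen and 0 risen, while 15.3% of all genes tested passed. In both genotypes this share was higher in every FFSS library than in every static one. The covariate and FFSS therefore cannot be fully told apart, and the fit may take out part of the FFSS effect. The log2 fold changes of Slc7a3 and Ern1 turned to -0.47 and -0.11 and did not pass (adjusted p = 0.32 and 0.538). Those of Vldlr, Nupr1 and Edem1 were -0.19, -0.40 and -0.18 and did not pass either (adjusted p = 0.344, 0.0593 and 0.141). Atf4 stood at -0.27 and passed (adjusted p = 0.0146). Hyou1 and Slc7a11 stood at 0.04 and 0.45 and did not pass (adjusted p = 0.743 and 0.321). The control FFSS libraries with the largest shares, replicates 2 and 3, were also those with the higher Ern1, Slc7a3 and Hyou1 and the lower osteoblast markers. The part of that share in these results was not tested beyond this covariate.

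**Figure D3:**
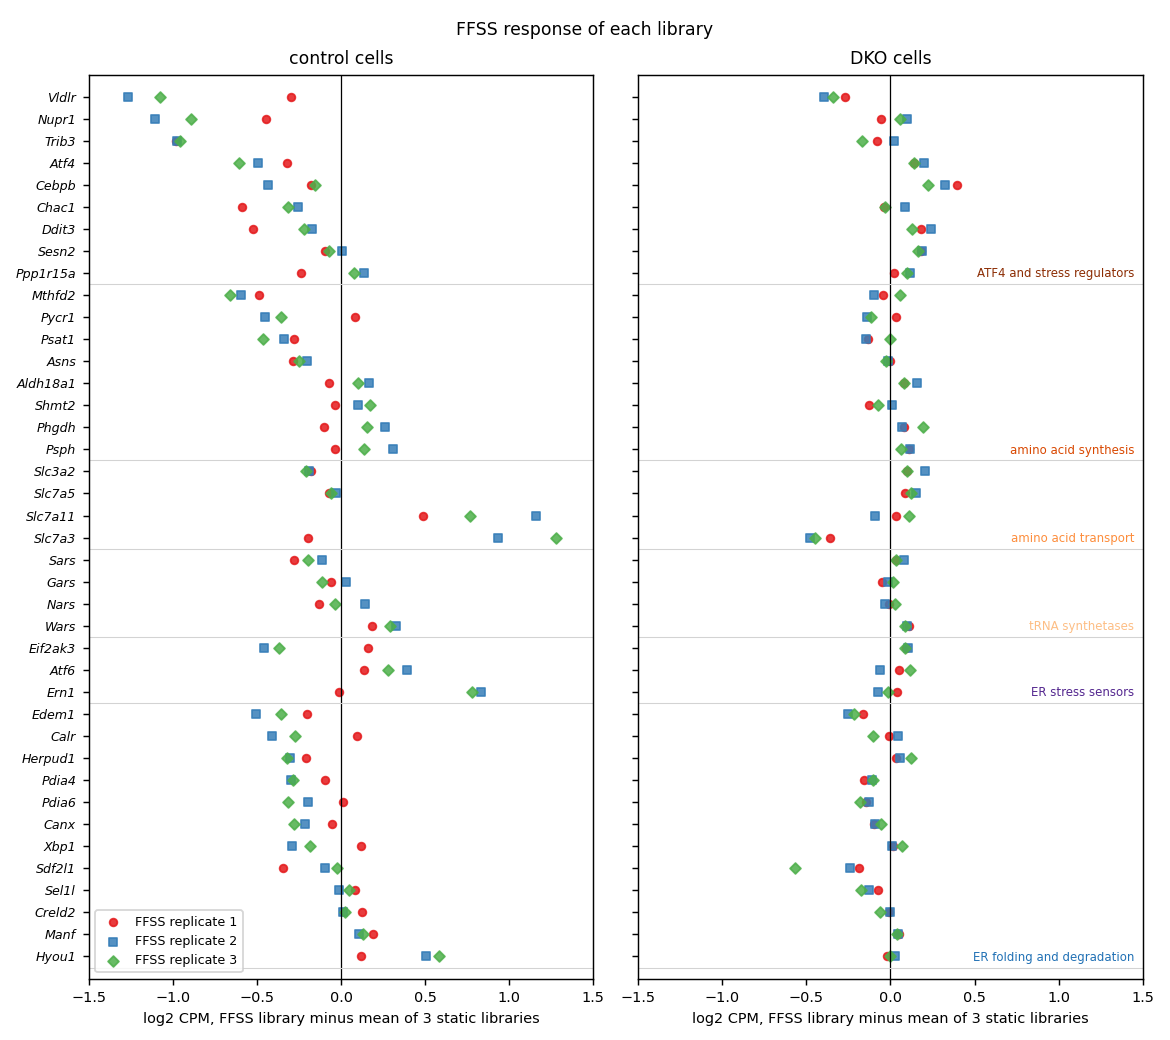
Log2 CPM of each FFSS library minus the mean of the 3 static libraries of its genotype, for the 40 tested genes by list, in control cells and in DKO cells. Trib3, Atf4 and Mthfd2 lie below 0 in all 3 control libraries, replicate 1 lies apart from replicates 2 and 3 for Vldlr, Slc7a3, Ern1 and Eif2ak3, and most DKO points lie near 0.

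In DKO cells, none of the 40 genes passed after FFSS, where 0.872% of all genes tested did. By edgeR, 6 of the 40 had an unadjusted p under 0.05, 3 higher and 3 lower. The share of all genes tested at that unadjusted threshold is not given here, so this count has no background to be read against. DESeq2 called 1 higher and 0 lower, while 3.69% of all genes it tested passed. The fit on the 6 DKO libraries alone called 5 higher and 4 lower, where 11.2% of all genes tested passed, and the same form of fit in control cells called 2 higher and 6 lower, where 14.7% passed. With the share of reads outside genes as a covariate 3 were higher and 1 lower, where 9.96% passed. Without control FFSS replicate 1, a library outside this comparison, 3 were higher and 3 lower, while 10.5% of all genes tested passed. The median log2 fold change was 0.001 over the 40 genes. Cebpb came nearest to the threshold, at 139, 142 and 142 CPM in DKO static and 186, 177 and 165 CPM in DKO FFSS libraries without overlap, with a log2 fold change of 0.32 ± 0.07 (SE, adjusted p = 0.0597). Atf4 was at 676, 653 and 698 and 745, 776 and 743 CPM, also without overlap, with a log2 fold change of 0.16 ± 0.07 (SE, adjusted p = 0.34). Here and above, absence of overlap only describes the libraries and is no test. Its share over all genes tested is not given here. Trib3 was at 50.6, 44.3 and 51.4 and 46.0, 49.3 and 43.2 CPM, with overlap, at -0.08 ± 0.10 (SE, adjusted p = 0.818), and its 95% interval ran from -0.29 to 0.13. Outside the 41 genes, Ddit4 was the 1 of 45 other pathway genes that passed, with a log2 fold change of -1.19, and it also fell in control cells, at -1.67.

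The difference between these responses was tested directly as an interaction, the FFSS effect in DKO cells minus that in control cells. At an adjusted p under 0.05 it was above 0 for 6 of the 40 genes and below 0 for none. Of all genes tested, 2.28% passed above 0 and 1.68% passed below. All 6 belong to the ATF4 axis, 5 regulators and 1 enzyme. The difference was 0.91 ± 0.14 (SE, adjusted p = 0.00316) for Trib3, 0.83 ± 0.19 (SE, adjusted p = 0.0365) for Nupr1 and 0.63 ± 0.10 (SE, adjusted p = 0.00456) for Atf4. For Cebpb, Mthfd2 and Ddit3 it was 0.57 ± 0.10 (SE, adjusted p = 0.0102), 0.56 ± 0.10 (SE, adjusted p = 0.00939) and 0.49 ± 0.13 (SE, adjusted p = 0.047). In each of the 6, control cells fell under FFSS and DKO cells did not pass, and the DKO value lay between -0.08 and 0.32. No folding gene or sensor passed, with adjusted p from 0.0711 for Herpud1 and 0.0857 for Hyou1 upwards, and the interval of Xbp1 ran from -0.13 to 0.41.

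Without control FFSS replicate 1, the interaction counts were 19 above and 7 below, while 37.6% of all genes tested passed in that fit. The 6 genes passed there too, with differences from 0.39 for Ddit3 to 1.03 for Nupr1. Calls were then not limited to the ATF4 axis: 16 of its 25 tested genes passed, 7 of 12 folding genes did (6 above, 1 below) and so did all 3 sensors (1 above, 2 below). Xbp1 stood at 0.27 (adjusted p = 0.00764), Herpud1 at 0.39, Calr at 0.32 and Eif2ak3 at 0.51. The genes below 0 then included Slc7a3 at -1.65, Slc7a11 at -0.93, Ern1 at -0.82 and Hyou1 at -0.54. Under scaling by library totals 5 genes passed above 0 and 1, Sel1l, below, where 1.6% and 4% of all genes tested did. Ddit3 did not pass there. By DESeq2 9 were above and 0 below, while 9.59% of all genes it tested passed. Nupr1 and Ddit3 lost their call under 11 and 13 of the 19 alternatives, among them the removal of any 1 library other than control FFSS replicates 1 and 2. Among the other pathway genes, Mthfd1l, Cebpg, Mars and Eif4ebp1 passed above 0 and Eif2ak2 below 0.

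**Figure D4:**
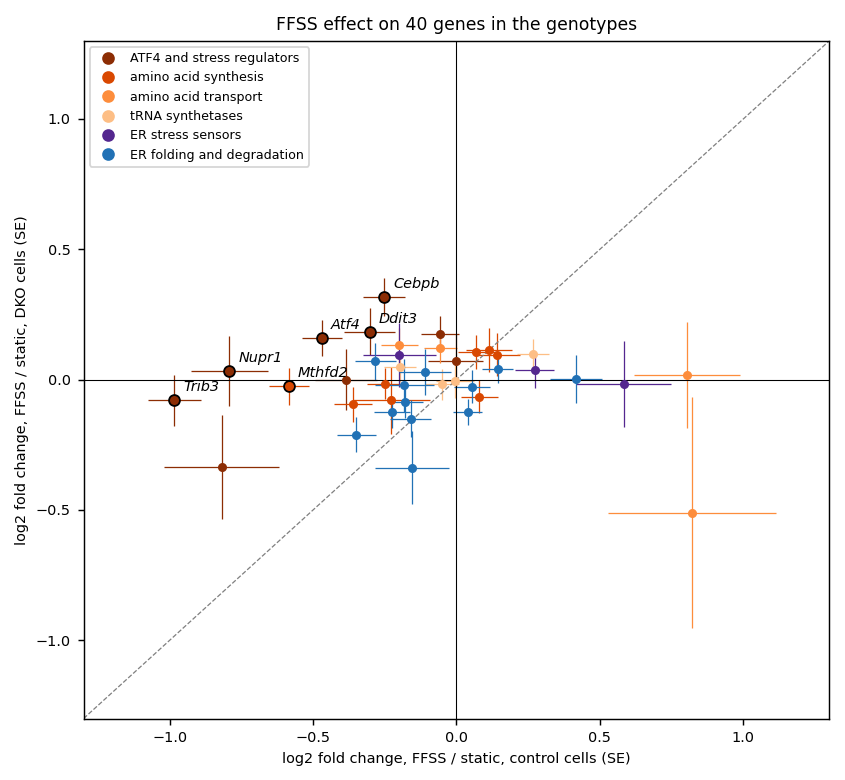
FFSS effect (log2 fold change, bars are SE) in control cells on the horizontal axis and in DKO cells on the vertical axis, for the 40 tested genes; the dashed line marks equal effects. The 6 named genes with a black rim passed the interaction test and lie above the line, with Trib3 at -0.98 and -0.08.

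**Figure D5:**
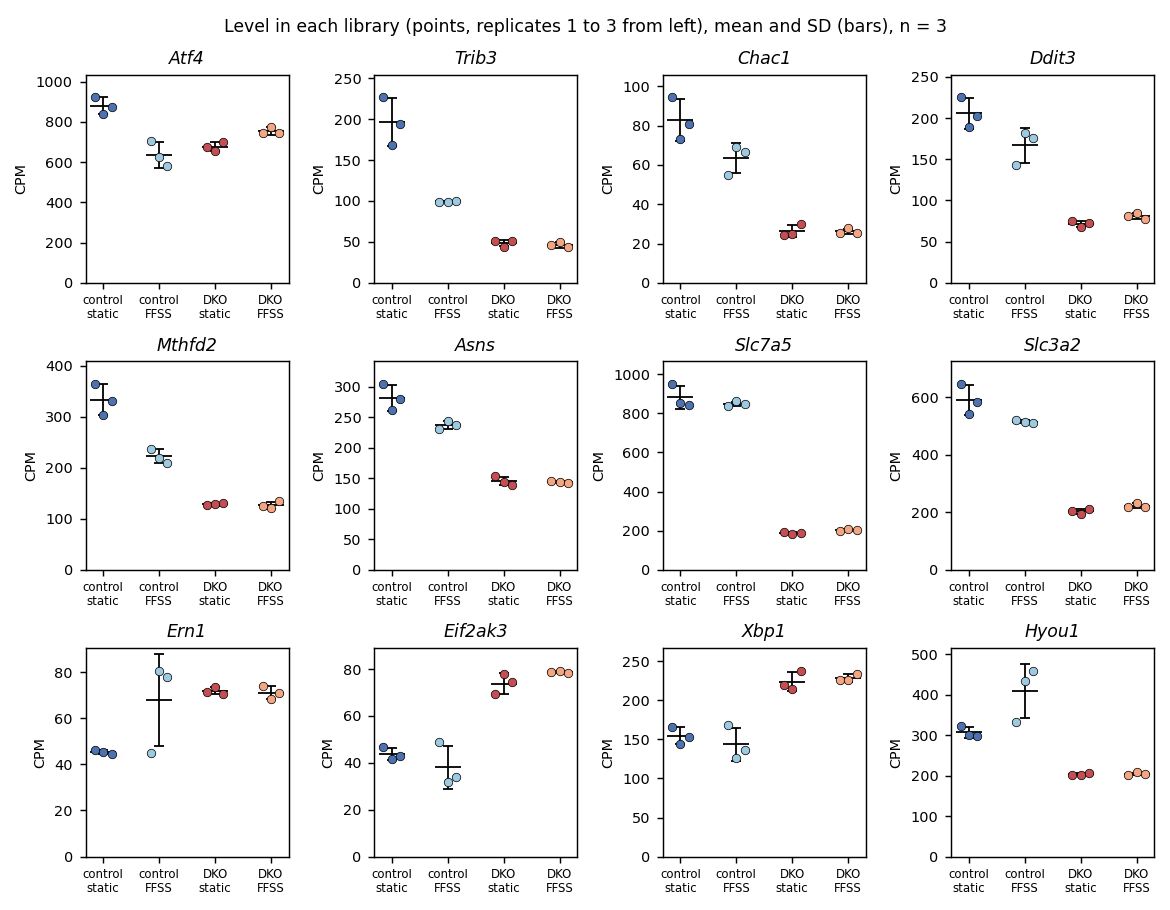
CPM of 12 genes in each of the 12 libraries (points, replicates 1 to 3 from the left), with mean and SD (bars, n = 3). Slc7a5, Slc3a2, Chac1 and Ddit3 are lower in all 6 DKO libraries than in all 6 control libraries, Trib3 lies lower in the control FFSS than in the control static libraries, and Ern1 in control FFSS replicate 1 lies at the static level.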

How the data were processed

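Total RNA was collected from 12 Ocy454 samples, mRNA was isolated from it, and the libraries were sequenced as single-end reads. Per the study's methods, reads were aligned with STAR to mouse genome mm9 and counted per Ensembl gene with HTSeq; the deposited files are named as not stranded, and their values are raw counts per gene and library. Genes with 0 counts in 2 or more libraries were removed, as in the study, which left 14904 genes. All 12 libraries were fitted as 4 groups with the robust quasi-likelihood test of edgeR 4.0.16 (R 4.3.3) and TMM factors. A gene passed at a Benjamini-Hochberg adjusted p under 0.05 over all genes tested; a further limit of more than 2-fold follows the study. CPM divides counts by library totals times TMM factors, FPKM further divides by exon length, and log2 fold changes are edgeR's. Gene models came from gencode vM1 on mm9, promoter windows from RefSeq GRCm38.p6. The test was also run on simulated counts, whose outcome is not given here, so that no result rests on it.

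Members, lists and tests were chosen with earlier results of these data known. Full values went to the members with an adjusted p under 0.05, in each comparison the 12 with the largest log2 fold change in size, and to the central genes Atf4, Ddit3, Xbp1, Ern1, Eif2ak3 and Atf6. Other pathway genes were given by counts, with values for the 3 largest that passed; further members with values were chosen after these were seen. Library depth was 17585225 to 19174118 counts, and limits from counts cover counting error only, while the 95% intervals of log2 fold changes come from the fit and include the spread between libraries. Alternatives were other scalings, filters, DESeq2 1.42.0, fits on 6 libraries, a replicate block, the share of reads outside genes as a covariate, and leaving out each library. Lines that name no gene, such as reads outside genes, stayed out of library sizes and tests; reads outside genes came to 5.25% to 10.3% of those outside and in genes. The HTSeq version differs between the sources, and the STAR version is not given in the sources used here.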

Additional observations from a re-analysis of the deposited data

Results flagged for a closer look

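The FFSS effect differed between the genotypes, by the interaction term of the edgeR fit, for 6 of the 40 tested genes and for 5 of 45 other genes of these pathways. Of all genes tested, 2.28% passed above 0 and 1.68% passed below, at an adjusted p under 0.05. As the effect in DKO cells minus that in control cells on the log2 scale, the difference was 0.63 for Atf4, 0.49 for Ddit3, 0.91 for Trib3, 0.57 for Cebpb, 0.83 for Nupr1 and 0.56 for Mthfd2. Of the other pathway genes it was 0.44 for Cebpg, a partner of ATF4, 0.40 for Eif4ebp1, 0.49 for Mthfd1l, another mitochondrial folate enzyme, and 0.40 for Mars, the methionine tRNA synthetase. It was -0.73 for Eif2ak2, the eIF2 kinase PKR. Mars and Ddit3 overlap on opposite strands, so both values are uncertain. The calls of Nupr1 and Ddit3 were lost under 11 and 13 of 19 alternatives.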

How the results depend on the processing

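The genotype counts in static culture stayed within 1.5 times their value under every alternative except the 2-fold limit, which left 0 higher and 9 lower. That limit left 0 and 0 genes for FFSS in control cells, 0 higher for the interaction, and 2 higher and 11 lower for DKO against control FFSS cells. Scaling by library totals gave 11 risen and 7 fallen for FFSS in control cells, 1 risen in DKO cells (Cebpb) and 1 below 0 for the interaction. It or the DESeq2 factors turned the sign of 20 values, none of which had passed. DESeq2 and the fit without a filter each gave 1 risen for FFSS in DKO cells. The covariate gave 0 risen and 8 fallen for FFSS in control cells, where 15.3% of all genes tested passed, and 3 and 1 in DKO cells, where 9.96% passed. It gave 7 higher for DKO against control FFSS cells, where 63.7% of all genes tested passed, against 56.6% without it. It also turned Slc7a3 and Ern1 in control cells to -0.47 and -0.11. Fits on the 6 libraries of a comparison gave 2 risen and 6 fallen in control cells and 5 and 4 in DKO cells, where 14.7% and 11.2% of all genes tested passed. The cause of these shifts was not tested.

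Leaving out 1 library at a time, the counts ran from 4 to 11 risen and 9 to 21 fallen for FFSS in control cells, 0 to 3 and 0 to 3 in DKO cells, 4 to 19 above and 0 to 7 below for the interaction, 5 to 5 higher and 30 to 32 lower for DKO against control static cells, and 4 to 8 higher and 24 to 28 lower under FFSS. The highest counts, other than the constant 5, came without control FFSS replicate 1. The share of all genes tested that passed ran from 24.2% to 55% for FFSS in control cells and 0.0866% to 10.5% in DKO cells. It ran from 1.2% to 37.6% for the interaction, 48.3% to 63.8% for the genotypes in static culture and 49.8% to 65% under FFSS. Each share was also highest without control FFSS replicate 1. Ddit3 lost its interaction call under 13 of 19 alternatives and Nupr1 under 11 of 19, and for FFSS in control cells Slc7a3 lost its call under 13 and Ern1 under 8 of 20, the reversals included. Replicate numbers did not pair the libraries (mean correlation of same-numbered deviations 0.002). With the replicate block, the counts were 7 risen and 16 fallen in control cells, 0 and 0 in DKO cells, 5 above and 0 below for the interaction, 5 higher and 30 lower in static culture and 4 higher and 27 lower under FFSS. In these comparisons, in the same order, 34.5%, 0.47%, 2.8%, 53.6% and 55.7% of all genes tested passed.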
